A study of Saccharomyces cerevisiae with 35 samples.

Results

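In budding yeast given rapamycin, 118 of 130 ribosomal protein messages tested fell between 10-15 and 30-45 min, beside 20.2% of all genes tested. For amino acid synthesis 22 of 36 tested rose, and for use of poor nitrogen sources 11 of 19, beside 13.5% of all genes tested. This comparison covers 12 bulk libraries out of the 33 bulk libraries of the study: 6 taken 30 and 45 min after the drug and 6 taken 10 and 15 min after it, from the same 3 cultures. They were chosen by their labelled times, with each culture compared with itself. Rapamycin acts through the small binding protein Fpr1: the drug and Fpr1 together block TORC1, the kinase complex that couples growth to nutrients. In growing cells TORC1 keeps the genes for ribosomal proteins and for ribosome assembly active. It also holds back the GATA factors Gln3 and Gat1, which switch on genes for poor nitrogen sources (nitrogen catabolite repression, NCR), and limits autophagy. Gcn4 is the activator of amino acid synthesis genes, and its synthesis is controlled through translation of its own message.

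All cultures were wild-type Saccharomyces cerevisiae of the FY4/5 background in rich medium (YPD) at 30C. All 12 libraries came from cells that had already received 200 ng/mL rapamycin, so the contrast is of longer against shorter exposure, and no untreated culture was followed over the same times; exposure and time in the flask cannot be told apart. Each library counted transcript 3' ends from a pelleted and frozen sample. The 12 libraries held 12358 to 100144 counts, and the shallowest was culture 1 at 45 min. Because each time point was primed with 1 barcoded primer in every culture (numbers 2112 and 2113 at 10 and 15 min, 2375 and 2376 at 30 and 45 min), primer and time cannot be told apart. In bulk RNA a lower level also cannot be split into fewer expressing cells and less RNA per cell. A single feature, YNL143C, held 13.2% to 34.7% of the counts of the 33 bulk libraries against 0.00112% to 0.0112% of the single-cell sums. Its annotated span (chrXIV:356794-357186 in assembly R64, minus strand) holds a run of 32 T on the plus strand. Leaving it out gave 307 called genes, the same number as with it. Between pairs of libraries, log2 levels correlated across genes at 0.859 to 0.924 within the early 6, 0.723 to 0.919 within the late 6 and 0.648 to 0.87 between them; genes are not independent replicates.

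Of 5843 features, 910 had enough counts to be tested and 307 of them (33.7%) differed between 30-45 and 10-15 min at a Benjamini-Hochberg adjusted p under 0.05 in edgeR's quasi-likelihood test with culture as a block. Of these, 123 were higher late (13.5% of genes tested) and 184 lower (20.2%), and 84 and 140 of them changed at least 2-fold. The direction was the same in all 3 cultures for 294 of the 307. The 6 late and 6 early levels did not overlap at all for 46 genes that were higher (5.05%) and 50 that were lower (5.49%), and all 96 were among the called genes. The balance of directions depended on the scaling. With RLE size factors 205 of 350 called genes were higher and with DESeq2 217 of 362; both moved the median change over all genes from -0.0017 to 0.24 on the log2 scale. None of the 307 changed sign under any alternative. The 45 min libraries carried much of the contrast: without them 134 genes were called, all of them among the 307. The plot of level against change shows calls over the whole range of abundance, with the highest feature, YNL143C, near no change.

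**Figure D1:**
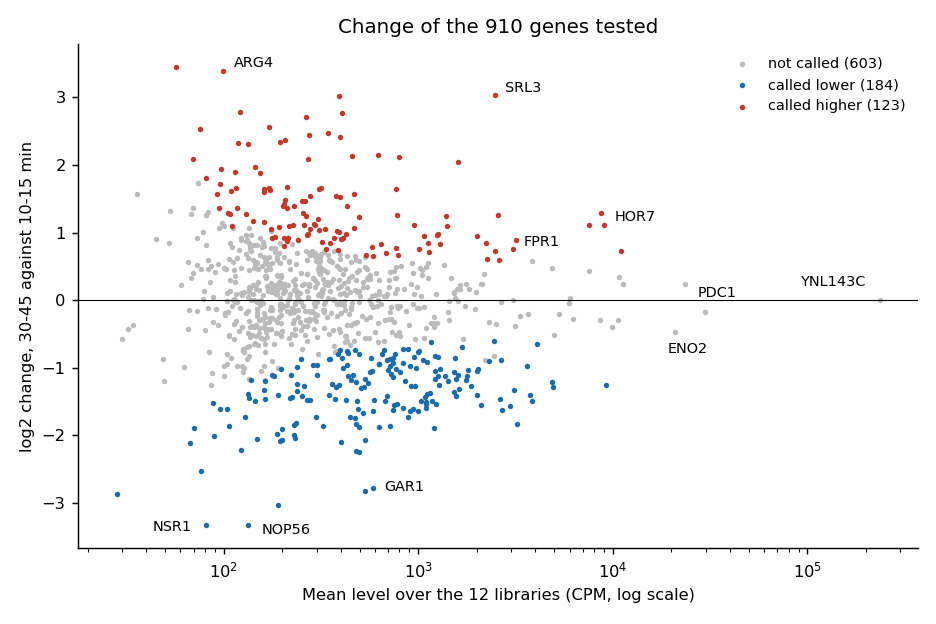
Mean level over the 12 bulk libraries (CPM, log axis) against the log2 change of 30-45 over 10-15 min for the 910 genes tested, with 123 called higher in red, 184 called lower in blue and 603 not called in grey. ARG4 and SRL3 stand near the top, below the unlabelled YAT2 (3.45), NSR1 and NOP56 at the bottom, and the abundant PDC1 and ENO2 lie near 0.

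The genes of cytosolic ribosomal proteins fell almost as a body. Of 137 in the files, 130 were tested, 118 were called lower and 0 higher, beside the 20.2% of all genes tested that were called lower. Their median log2 change was -1.20 against -0.0017 for all genes tested, and 30 of the 118 had late levels wholly below the early ones (5.49% of all genes tested did). RLE size factors left 99 called lower and 0 higher, with a median of -0.96, and without the 45 min libraries 49 were called lower. The 7 members not tested did not reach the count minimum.

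Summed over all 137 genes, ribosomal protein messages took 22.6%, 15.9% and 16.2% of the counts of cultures 1, 2 and 3 at 10 min and 17.6%, 14.9% and 18.5% at 15 min. The shares were 9.17%, 9.45% and 13.2% at 30 min and 7.16%, 4.73% and 8.04% at 45 min. All 6 late shares were below all 6 early ones, and culture 3 had the highest share at both late times. The mean difference over cultures was -8.99 percentage points (SD 2.66, n = 3), with a two-sided exact permutation p of 0.00926, the smallest that rearranging the times within cultures can give. With only 2 cultures the test cannot go below 0.0556. Before the drug the share was 22.9% to 28.8%.

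Among single ribosomal protein genes, RPL1B (YGL135W), for a protein of the large subunit, fell most. Its lowest, median and highest early levels, as CPM (counts scaled to library size), were 205, 329 and 357 CPM, and its late ones 0, 60.5 and 177 CPM. No late library reached the lowest early one, and the log2 change was -3.03 ± 0.48 (SE, adjusted p = 5.18e-07, edgeR). RPS29A (YLR388W), of the small subunit, changed by -2.24 ± 0.35 (adjusted p = 4.55e-07, edgeR), with overlapping levels because culture 3 at 30 min was still at 602 CPM. RPL27B and RPL21A, both of the large subunit, changed by -2.10 and -2.07; the change of RPL21A shrank to -0.62 without the 45 min libraries (adjusted p = 0.344, edgeR) and was not called. The single-copy genes RPL3 (YOR063W) and RPS3 (YNL178W) gave the same picture. RPL3 stood at 2612 ± 685 CPM early (SD, n = 6) and 1103 ± 305 CPM late, a log2 change of -1.27 ± 0.23 (adjusted p = 8.51e-06, edgeR). RPS3 changed by -1.47 ± 0.28, and its levels spread more, from 846 to 6756 CPM within the early 6; without the 45 min libraries it changed by -0.86 (adjusted p = 0.0683, edgeR). Most ribosomal protein genes have a near-identical copy, and how counts were split between copies is not given, so the value of a single A or B copy is uncertain. The 12 tested members that were not called included RPL41A and RPL41B, with changes of -0.52 and -0.41.

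**Figure D2:**
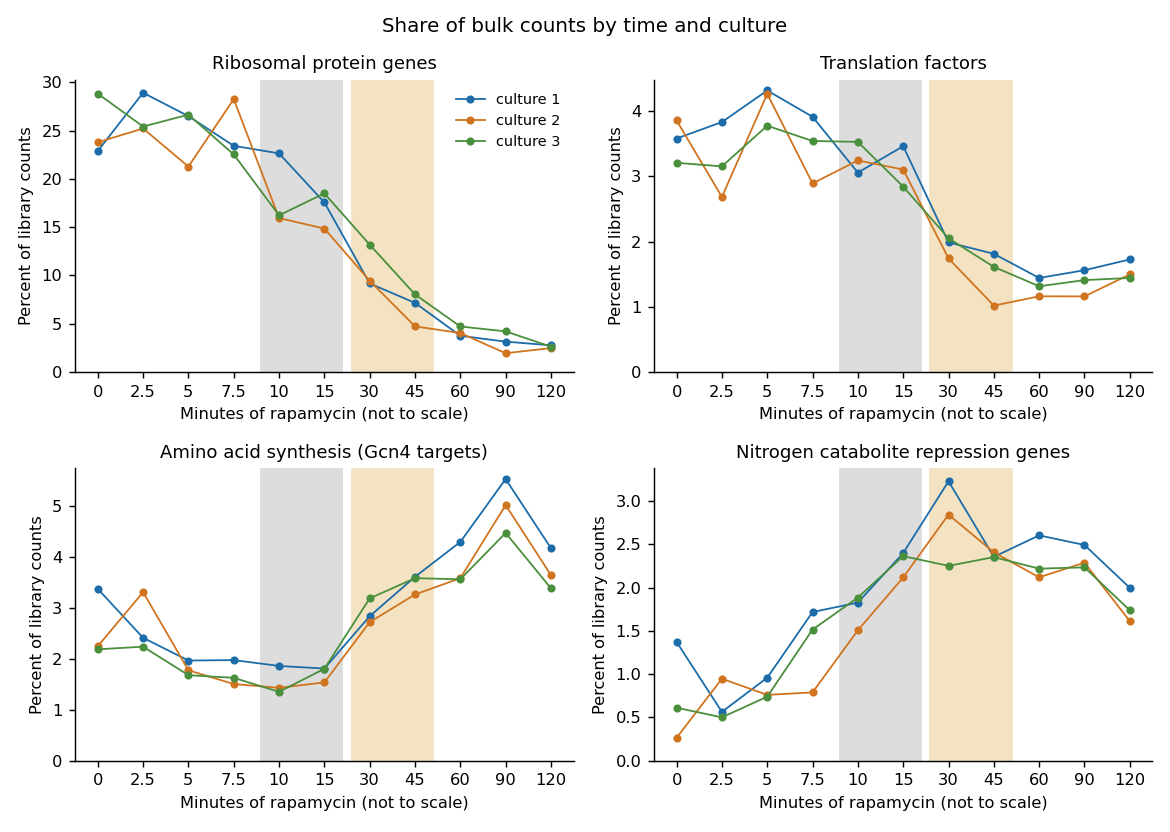
Share of library counts (percent) taken by 4 gene lists at the 11 sampled times, 1 line per culture, with 10-15 min shaded grey and 30-45 min shaded tan; the time axis is not to scale. In all 3 cultures the ribosomal protein share falls from 14.9-22.6% to 4.73-13.2% between the shaded periods, translation factors fall, and the amino acid synthesis share rises from 1.36-1.86% to 2.73-3.62%.

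Few genes for ribosome assembly could be measured. Of the 142 listed genes in the files, 13 were tested; 9 were called lower (20.2% of all genes tested were) and 0 higher, with a median log2 change of -1.61. Without culture 2 the list gave 2 called lower of 14 tested (median -0.86), and without the 45 min libraries 4 of 12. The summed share of all 142 was 0.391% to 0.684% early and 0.161% to 0.389% late, so the 2 periods just failed to overlap. NOP56 (YLR197W) encodes a core protein of the box C/D particles that methylate ribosomal RNA. It was read at 124, 219 and 508 CPM as lowest, median and highest early level and at 0, 20.2 and 35.4 CPM late. Every late library was below every early one, and 92 early counts became 6 (log2 change -3.33 ± 0.55 SE, adjusted p = 1.5e-06, edgeR). GAR1 (YHR089C), of the H/ACA particles that make pseudouridine, was the most abundant of the group: its mean was 1316 ± 275 CPM at 10 min (SD, n = 3), 691 ± 63.5 at 15 min, 168 ± 107 at 30 min and 179.7 ± 129 at 45 min. It had dropped from 15 to 30 min by 2.25 on the log2 scale and the step to 45 min was not called (over both periods -2.78 ± 0.36, adjusted p = 4.66e-09, edgeR). NSR1 (YGR159C), the yeast nucleolin, went from 48 early counts to 3 late ones (-3.33 ± 0.73, adjusted p = 0.000155, edgeR); without culture 2 its change of -2.21 was not called (adjusted p = 0.1). The other called members were DBP2, NOP1, RRS1, RPC53, NHP2 and STM1. The strict count filter left 1 called member, and a fit of the 12 libraries alone 3.

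Many genes of this group carry 2 short promoter elements, PAC (core GATGAG) and RRPE (core AAAAATTT). The promoters of the 2 members with the clearest falls are shown because both hold both elements close together. Each runs 5' to 3' from 250 bases before to 50 bases after the annotated start in RefSeq assembly R64 (GAR1 chrVIII:283249-283548, minus strand; NOP56 chrXII:545847-546146, plus strand), and capitals mark GATGAG and AAAAATTT or their reverse complements, of which AAAAATTT and its complement overlap in GAR1.
GAR1: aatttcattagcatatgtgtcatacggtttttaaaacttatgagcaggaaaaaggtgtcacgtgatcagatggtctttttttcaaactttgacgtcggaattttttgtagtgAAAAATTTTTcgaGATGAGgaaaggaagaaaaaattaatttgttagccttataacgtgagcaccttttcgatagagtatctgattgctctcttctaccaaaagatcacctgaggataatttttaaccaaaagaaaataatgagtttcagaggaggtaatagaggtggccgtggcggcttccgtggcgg
NOP56: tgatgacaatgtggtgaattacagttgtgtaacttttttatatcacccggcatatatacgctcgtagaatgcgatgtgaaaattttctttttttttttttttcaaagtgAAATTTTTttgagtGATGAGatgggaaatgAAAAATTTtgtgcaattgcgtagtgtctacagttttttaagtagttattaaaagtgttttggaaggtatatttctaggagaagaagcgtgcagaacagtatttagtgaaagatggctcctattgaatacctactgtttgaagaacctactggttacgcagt
In GAR1 the GATGAG starts 125 bases before the annotated start and in NOP56 127 bases before it. Over the list, 129 of 142 promoters hold GATGAG on either strand and 116 of 142 hold AAAAATTT, against 20% and 14.5% of all 5798 protein-coding promoters of that length. Of the 9 called members, 8 hold each. Among all genes called lower, 42 of 182 hold GATGAG (23.1%) and 51 of 182 hold AAAAATTT (28%), while the 118 called ribosomal protein genes hold them in 11.9% and 13.6%. A match of letters is a description and not a tested site.

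Of 35 translation factor genes 23 were tested, 15 were called lower (20.2% of all genes tested were) and 0 higher, 7 without the 45 min libraries, with a median log2 change of -1.03. Their summed share was 2.84% to 3.53% early and 1.02% to 2.05% late, without overlap. TIF4631 (YGR162W), the scaffold eIF4G, had early levels of 620.3, 737 and 1315 CPM (lowest, median, highest) and late levels of 65.9, 212 and 425 CPM; all late levels were lower (-2.07 ± 0.36 SE, adjusted p = 5.63e-06, edgeR). TIF5, for the GTPase activator eIF5, changed by -2.06. TEF1 (YPR080W), for elongation factor 1A, which has an identical copy in TEF2, changed less, by -0.64 ± 0.21 (adjusted p = 0.0125, edgeR), and was not called with RLE size factors (-0.4, adjusted p = 0.0999) or without the 45 min libraries (-0.55, adjusted p = 0.149). Of 20 chaperone genes tested 9 were called lower, beside the 20.2% of all genes tested, and 0 higher (median -0.80). With RLE size factors 6 were called lower, without culture 2 5 of 22 tested, and without the 45 min libraries 4. They included the Hsp40 YDJ1 (-1.75), the ribosome-bound Hsp70 SSB1 and EGD2 (YHR193C), a subunit of the complex that meets nascent chains (-2.22 ± 0.58, adjusted p = 0.00137, edgeR). The EGD2 change was -0.85 without the 45 min libraries and not called (adjusted p = 0.242). Of 4 aminoacyl-tRNA synthetases tested out of 21, the prolyl enzyme YHR020W was called lower, with a change of -1.81.

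Other falling genes are known from translation or nucleotide synthesis. SRO9 (YCL037C), an RNA-binding protein found on translating ribosomes, had early levels of 614, 890.1 and 1406 CPM and late levels of 71.6, 143 and 212 CPM (lowest, median, highest). The late and early libraries lay far apart, with a log2 change of -2.83 ± 0.33 (SE, adjusted p = 2.65e-10, edgeR). DPH2 (YKL191W), which helps make the diphthamide residue of elongation factor 2, changed by -2.54 ± 0.66 (adjusted p = 0.00145, edgeR) and was not called without the 45 min libraries (-1.78, adjusted p = 0.0555). In guanine nucleotide synthesis, IMD4 and GUA1 fell. IMD4 (YML056C), an IMP dehydrogenase with close copies in the genome, changed by -2.09 ± 0.40 (adjusted p = 2.23e-05, edgeR). GUA1 (YMR217W), the GMP synthase of the next step, changed by -2.25 ± 0.35 (adjusted p = 4.55e-07, edgeR), although culture 3 was already low at 10 min (286 CPM against 1196 and 1211 in cultures 1 and 2). The list with IMD4 and GUA1 has 36 purine and pyrimidine genes, 10 of them tested. In it ADE1 and ADE17, of the shared route to IMP, and ADE3, of one-carbon supply, were called higher. Of all genes tested, 13.5% were called higher and 20.2% lower. Ribosomal RNA features RDN18-1 and RDN25-1 were also called lower, at -1.42 and -1.33; an oligo-dT primer does not select for these RNAs, which lack long poly(A) tails.

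**Figure D3:**
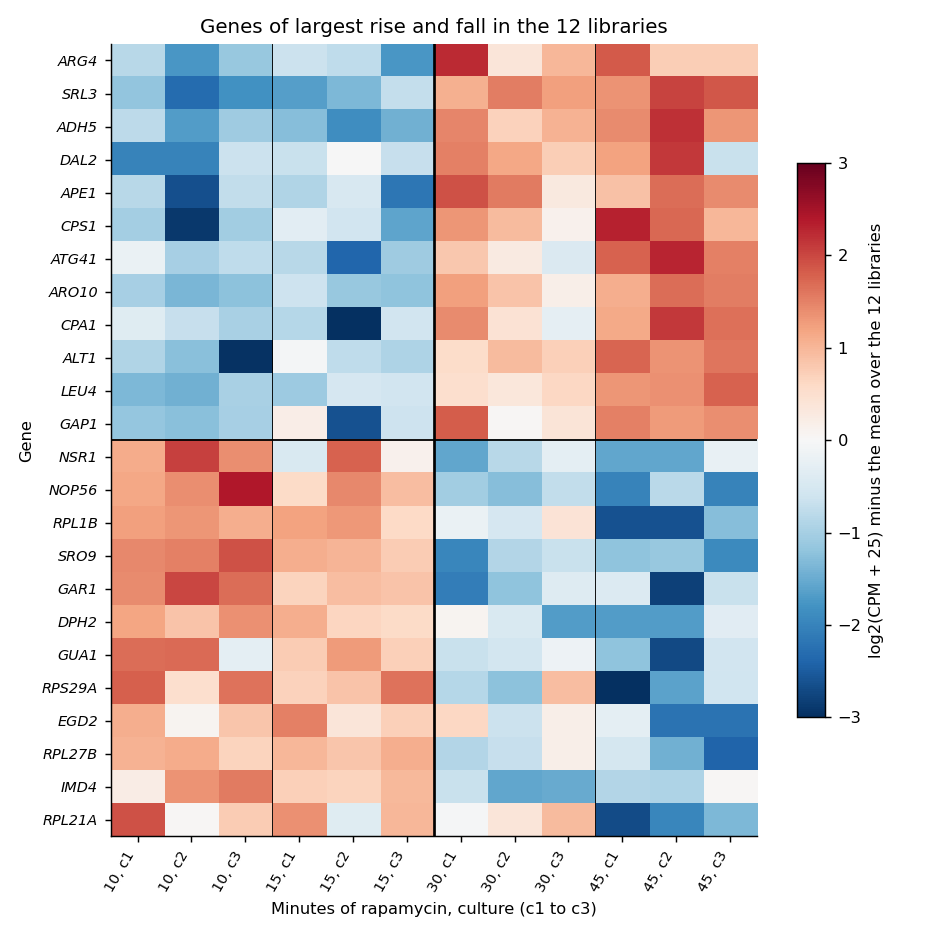
Heat map of the 12 genes with the largest rise and the 12 with the largest fall (rows) in the 12 libraries (columns, by time and culture), as log2(CPM + 25) minus the gene's mean over the 12 libraries. The thick vertical line parts 10-15 from 30-45 min; SRL3 and ADH5 are above their mean in all 6 late libraries, and NOP56 and SRO9 below it.

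On the rising side, 19 of 46 NCR genes, for poor nitrogen sources, were tested; 11 were called higher (13.5% of all genes tested were) and 0 lower, with a median log2 change of 1.10. Without the 10 min libraries 6 were called higher and 1 lower (median 0.46), and without the 30 min libraries 9 and 1. Between 0 min and 10-15 min the median change of all 910 genes tested was 0.15, with 100 called higher. That of the NCR genes was 1.42, with 6 of 19 called higher. Their summed share was 1.51% to 2.4% early and 2.25% to 3.23% late; the 2 ranges overlapped. The called members reach from uptake to breakdown. Among them were the permeases GAP1 and MEP2, the allantoin enzymes DAL2 and DAL3 and the transaminases ARO9 and BAT2. The decarboxylase ARO10, the activator gene GLN3 and vacuolar peptidase genes were others. The 8 tested members not called were PUT1 (1.26), GDH3 (0.79), PRB1 (0.64), CAR1 (0.48), UGA1 (0.46), CAR2 (-0.030), GLN1 (-0.41) and GAT1 (-0.60). GAP1 (YKR039W), the general amino acid permease, stood at 34.5 ± 59.8 CPM at 0 min (SD, n = 3) and 45.4 ± 6.25 at 10 min. It then stood at 75.7 ± 76.4 at 15 min, 274 ± 208 at 30 min and 381 ± 35.2 at 45 min. The 0 min libraries held 8017, 41406 and 23822 counts in cultures 1, 2 and 3. The 0 min SD of GAP1 exceeds its mean, so that value is not a firm baseline. Its early and late levels overlapped in 1 pair, culture 1 at 15 min (153 CPM) against culture 2 at 30 min (133 CPM), and the change was 2.34 ± 0.42 (SE, adjusted p = 5.53e-06, edgeR). DAL2 (YIR029W), the allantoicase, was read at 0, 37.7 and 74.5 CPM early and 38.1, 203 and 412 CPM late (lowest, median, highest), a change of 2.78 ± 0.56 (adjusted p = 5.03e-05, edgeR) that was not called without culture 2 (2.15, adjusted p = 0.0825). ARO10 (YDR380W), of the Ehrlich pathway of amino acid breakdown, changed by 2.47 ± 0.34 with no overlap (adjusted p = 1.56e-08, edgeR).

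MEP2 (YNL142W), the high-affinity ammonium permease, followed another course. It stood at 34.5 ± 59.8 CPM at 0 min, 149 ± 25 at 10 min and 359 ± 187 at 15 min (SD, n = 3). At 30 min it was at 697 ± 449 CPM and at 45 min at 272 ± 78.4 CPM. As with GAP1, the 0 min SD of MEP2 exceeds its mean. Its level was highest at 30 min in every culture and lower at 45 min, a step of -1.25 that was not called (adjusted p = 0.222, edgeR). Over both periods its change of 0.92 ± 0.32 was called (adjusted p = 0.0184, edgeR) but not without the 10 min libraries (0.25, adjusted p = 0.676), without the 30 min libraries (0.18, adjusted p = 0.793) or without the culture block (0.93, adjusted p = 0.0655). MEP2 lies beside YNL143C on chromosome XIV and is transcribed the other way. DAL5, an allantoate permease, and DAL80, a GATA repressor, fell short of the count minimum, with 1 early and 11 late counts for DAL5 and 5 and 18 for DAL80.

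GATA factors bind sites with the core GATAAG. The promoters of DAL2 (chrIX:410557-410856, plus strand) and GAP1 (chrXI:514813-515112, plus strand) are shown because these genes rose most among the allantoin and permease genes; capitals mark GATAAG or its complement, in assembly R64 as above. The ARG4 promoter (chrVIII:141353-141652, minus strand) stands beside them with the Gcn4 core TGACTC in capitals.
DAL2: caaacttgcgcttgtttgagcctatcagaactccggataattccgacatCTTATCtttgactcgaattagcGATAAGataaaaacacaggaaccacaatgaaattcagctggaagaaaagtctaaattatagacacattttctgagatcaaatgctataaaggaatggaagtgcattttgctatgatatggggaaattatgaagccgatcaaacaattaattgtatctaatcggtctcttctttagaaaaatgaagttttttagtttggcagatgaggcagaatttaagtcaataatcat
GAP1: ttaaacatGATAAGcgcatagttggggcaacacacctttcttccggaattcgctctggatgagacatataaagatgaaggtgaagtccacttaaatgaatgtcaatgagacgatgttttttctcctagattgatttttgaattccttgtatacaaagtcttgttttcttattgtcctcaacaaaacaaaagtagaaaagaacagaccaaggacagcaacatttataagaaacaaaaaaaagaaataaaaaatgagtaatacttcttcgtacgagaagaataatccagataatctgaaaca
ARG4: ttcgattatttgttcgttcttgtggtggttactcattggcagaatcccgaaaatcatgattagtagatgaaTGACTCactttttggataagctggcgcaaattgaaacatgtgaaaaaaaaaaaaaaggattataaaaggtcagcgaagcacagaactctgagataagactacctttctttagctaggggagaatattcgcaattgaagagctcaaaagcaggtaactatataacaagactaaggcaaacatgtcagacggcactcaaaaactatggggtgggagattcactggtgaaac
DAL2 holds 2 GATAAG matches and GAP1 1 in this window. ARG4 also holds 2 GATAAG matches and DAL2 1 TGACTC match, all left in lower case. GATAAG is in 20 of 46 NCR promoters and in 6 of the 11 called ones, against 16% of the 907 promoters of tested genes and 26% of those called higher. TGACTC is in 45 of 72 promoters of the amino acid list and 14 of its 22 called members, against 11.5% of tested genes. It is in 29.3% of genes called higher and 5.49% of those called lower. The stress element core AGGGG is in 22.8% of genes called higher, 17% of those called lower and 26.5% of all tested. For GTCAC, a core of the retrograde element, the shares are 27.6%, 22.5% and 25.4%. All motifs were searched on both strands.

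Of 72 listed Gcn4 targets in amino acid synthesis 36 were tested, 22 were called higher (13.5% of all genes tested were) and 0 lower, with a median log2 change of 1.01; 13 of the 22 had late levels wholly above early ones (5.05% of all genes tested did). The summed share was 1.36% to 1.86% early and 2.73% to 3.62% late, without overlap, and the early share was below that of the untreated cultures (2.19% to 3.38%). Without the 10 min or the 45 min libraries 14 members were called. ARG4 (YHR018C), argininosuccinate lyase of the last step to arginine, rose from 6 counts early to 54 late. Its lowest, median and highest levels were 0, 17.6 and 28.7 CPM early and 82.9, 128 and 370.2 CPM late, with no overlap and the largest change among the named genes (3.39 ± 0.62 SE, adjusted p = 7.59e-06, edgeR). CPA1 (YOR303W), a subunit of the carbamoyl phosphate synthase of the arginine pathway, changed by 2.45 ± 0.37 (adjusted p = 2.1e-07, edgeR), and LEU4 (YNL104C), which commits carbon to leucine, by 2.37 ± 0.36 (adjusted p = 3.17e-07, edgeR). Both had all late levels above all early ones. The called members also covered lysine (LYS1, LYS21), tryptophan (TRP2, TRP3), branched-chain amino acids (ILV2, ILV6) and threonine (HOM2, THR1). Asparagine (ASN1), glycine cleavage (GCV1) and the message of GCN4 itself were covered too. In the same pathways LYS9 (0.54), LYS12 (0.35), LYS20 (0.47), TRP4 (0.84), HOM6 (0.085), THR4 (0.74) and ASN2 (0.14) were not called. Nor were TRP1 (-0.38), ILV3 (-0.57) and ILV5 (-0.089). HIS4 (YCL030C), of histidine synthesis, was called with a change of 1.28 ± 0.46 (adjusted p = 0.0238, edgeR), from 67 counts in all, and lost that call without the 10 min libraries (0.69, adjusted p = 0.356), without the 45 min libraries (0.93, adjusted p = 0.253) and without culture 1 or 2. ALT1 (YLR089C), an alanine transaminase, changed by 2.41 ± 0.34 (adjusted p = 3.57e-08, edgeR).

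Of 21 listed genes for vacuolar proteases, autophagy and ubiquitin 9 were tested, 5 were called higher, beside the 13.5% of all genes tested, and 0 lower (median log2 change 1.39), and the summed share went from 0.189-0.255% to 0.331-0.566% without overlap. APE1 (YKL103C), an aminopeptidase carried to the vacuole by the autophagy route, had levels of 19.9, 129 and 174 CPM early and 319, 759.9 and 1015 CPM late (lowest, median, highest). The lowest late value, in culture 3 at 30 min, was above all early ones, and the change was 2.77 ± 0.34 (SE, adjusted p = 7.6e-10, edgeR). CPS1 (YJL172W), a vacuolar carboxypeptidase, changed by 2.71 ± 0.38 (adjusted p = 4.98e-08, edgeR). ATG41 (YPL250C), needed for forming autophagosomes, changed by 2.56 ± 0.43 (adjusted p = 1.77e-06, edgeR), with more at 45 than at 30 min in every culture. ATG33 and the protease gene PEP4 were the other called members. The vacuolar proteases PRB1 (0.64), PRC1 (0.72, adjusted p = 0.0596, edgeR) and APE3 (0.13) and the ubiquitin-conjugating enzyme UBC4 (-0.11) were not called. APE1 and CPS1 are in the NCR list too. By contrast 1 of 16 proteasome genes tested was called in bulk, RPN2 (1.08), and it was not called without the 10 min libraries (0.54, adjusted p = 0.415).

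Other rises lay outside these groups. SRL3 (YKR091W), first found as a suppressor of a rad53 mutant, was measured with the smallest error among the 12 largest rises named. It stood at 278, 515 and 893 CPM early and 3129, 4071 and 6093 CPM late (lowest, median, highest), from 193 counts to 1191. The lowest late level was above the highest early one (3.03 ± 0.26 SE, adjusted p = 1.3e-15, edgeR). ADH5 (YBR145W), a minor alcohol dehydrogenase, changed by 3.03 ± 0.31 (adjusted p = 2.93e-12, edgeR), and OPI3 (YJR073C), of phosphatidylcholine synthesis, by 2.04 ± 0.25 (adjusted p = 5.52e-10, edgeR), both without overlap. Of 21 cell wall genes tested 10 were called higher (13.5% of all genes tested were) and 0 lower (median 0.66), but 4 without the 10 min libraries, 4 without the 45 min libraries, 4 without culture 3 and 6 without culture 1. The wall proteins PST1 and SED1 led them at 1.66 and 1.29. MET17 (YLR303W), which fixes sulfide into homocysteine, changed by 1.57, while SAH1, which recycles S-adenosylhomocysteine, changed by -0.85. These were the only called members of 6 tested sulfur and methionine genes. Of 15 tested genes of the retrograde and tricarboxylic acid group 4 were called higher, led by LPD1 (1.28) and ODC2 (1.27); none of the 4 was called without the 10 min libraries, and CIT2, a standard retrograde target, was not called (0.30, adjusted p = 0.394, edgeR). Of 7 tested histone genes HHT2 (1.23) and HTB1 (0.86) were called higher, and neither was called without culture 3; HTA2 was not called (0.48). FPR1 (YNL135C), whose product is the receptor of the drug, stood at 2266 ± 184 CPM early (SD, n = 6) and 3835 ± 1049 CPM late, all late levels above early ones (0.75 ± 0.23 SE, adjusted p = 0.00578, edgeR). Its call was lost without the 10, the 15 or the 45 min libraries and without culture 3, and with no filter on low counts (0.48, adjusted p = 0.435, edgeR); its change was 0.48 to 0.78 in these 5.

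Few genes of central carbon metabolism were called in bulk. Beside every count in this paragraph, 13.5% of all genes tested were called higher and 20.2% lower. Of 20 glycolysis and fermentation genes tested, ADH5 was called higher and GPP1, a glycerol phosphatase, lower (-0.70; -0.45 and not called with RLE size factors, adjusted p = 0.121). The summed share of the group was 8.22% to 11.8% early and 8.21% to 10.8% late. TDH3, a glyceraldehyde-3-phosphate dehydrogenase, stood at 6043 ± 945 CPM early and 6048 ± 823 CPM late (SD, n = 6), and its log2 change of 0.025 ± 0.21 was not called (adjusted p = 0.944, edgeR). PDC1, pyruvate decarboxylase, and ENO2, enolase, gave -0.17 and -0.47, neither called; that of ENO2 was called in 5 of 18 alternatives, with changes of -0.82 to -0.43 and a lowest adjusted p of 0.0152 (edgeR). PMA1, the plasma membrane proton pump, was not called (-0.67 ± 0.48), nor was any of the 12 tested pump genes (4 of them were called higher with RLE size factors). Of 12 tested stress genes 3 were called higher, TFS1 (1.39), the abundant HOR7 (1.12) and SOD2 (0.89), and 1 without the 45 min libraries. The median log2 change of the 12 was 0.061. Summed over all 65 listed stress genes, the share was 0.82% to 1.17% early and 1.51% to 1.88% late, without overlap. The classic stress messages could not be judged singly at this depth. HSP12 had 1 count in the 12 libraries together, and HSP26 and CTT1 were also under the minimum, as were SNZ1, GCV2 and the hexose transporter HXT3, which had 50 early and 25 late counts. Of the remaining lists, 1 of 15 nuclear respiration genes was called (COX9, 1.19), 2 of 21 lipid genes (OPI3 and ITR1, higher), 2 of 7 iron and phosphate genes (PHO89 and PHO5, lower), 2 of 4 amino acid permeases (GNP1 and PTR2, lower) and 1 of 2 TOR pathway genes (FPR1). None of 3 trehalose and glycogen genes, 2 cell cycle genes or 1 vitamin gene was called, and no hexose transporter or mitochondrially encoded gene was tested.

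**Figure D4:**
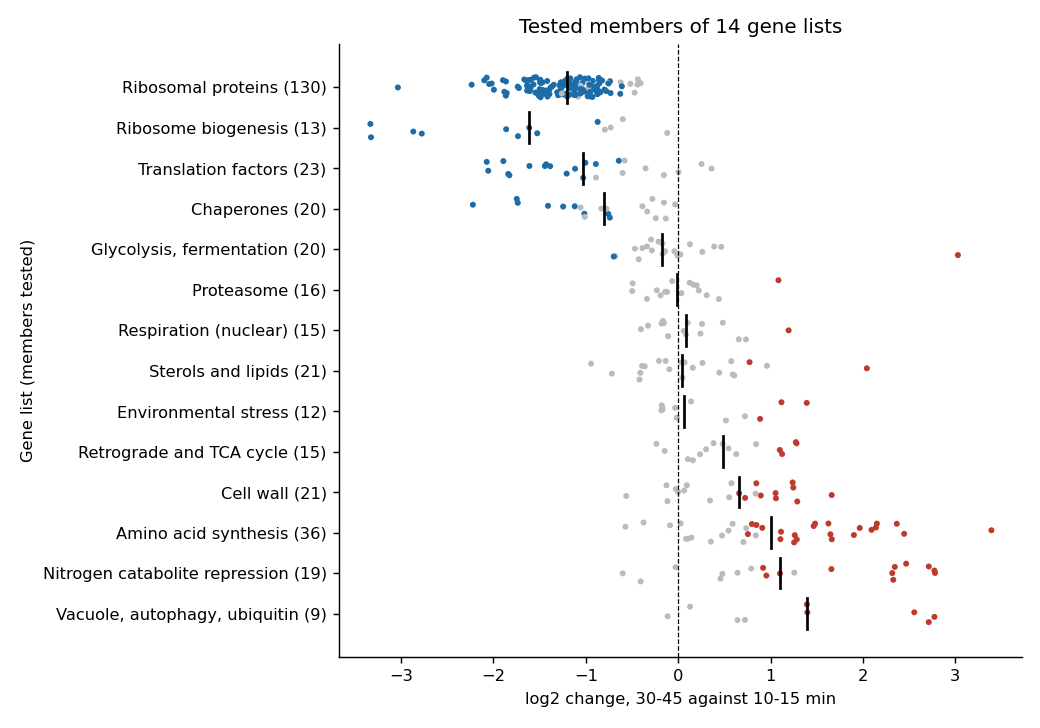
Log2 change of 30-45 over 10-15 min for the tested members of 14 gene lists, 1 point per gene, red for called higher, blue for called lower and grey for not called, with a black bar at each list's median and a dashed line at the median of all genes tested. The medians of ribosomal protein, ribosome biogenesis, translation and chaperone genes lie to the left, and those of amino acid, nitrogen and vacuole genes to the right.

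Of the 3 steps between successive times, the one from 15 to 30 min, which joins the 2 periods, gave calls in the fit used here. There 62 of 910 genes were called (6.81%), 27 higher and 35 lower. This step is also where the primer numbers pass from 2108-2113 (0 to 15 min) to 2375-2379 (30 to 120 min). Change over time and change between these primer ranges cannot be told apart in it. Within the early period, from 10 to 15 min, edgeR called 0 genes (0%), with 67 at an unadjusted p under 0.05 and 0 by DESeq2. Within the late period, from 30 to 45 min, it called 0 (0%), with 91 at an unadjusted p under 0.05 and 4 by DESeq2. A single step rests on 3 libraries a side, the whole contrast on 6, so the counts are not of equal power. The steps share libraries and are given side by side. The median log2 change of the 130 ribosomal protein genes was -0.15 from 10 to 15 min, -0.78 from 15 to 30 min and -0.68 from 30 to 45 min. For ribosome biogenesis the 3 medians were -0.78, -1.04 and -0.38. For amino acid synthesis they were 0.30, 0.79 and 0.27, and for NCR genes 0.77, 0.68 and 0.20. The ribosomal protein median moved by similar amounts in both later steps. The other 3 medians moved less in the last step than in the one before it. The 20 tested chaperone genes had a median of 0.53 from 0 to 10-15 min, with 3 called higher and 0 lower. Over all 910 genes tested that median was 0.15, with 100 called higher and 86 lower. From 15 to 30 min the chaperone median was -0.71, with 2 called lower, beside 35 of the 910. The 15 to 30 min count was sensitive to single cultures: without culture 1, 2 or 3 it was 7, 28 or 26.

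Periods close to these 2 were also sampled in the study's single-cell libraries, from 2 separate cultures. In those cultures wild-type strains were grown together with fpr1 deletion strains. Each single-cell library covers an interval, so its times are not those of the bulk libraries. Unique molecules were summed over the wild-type cells of each library, and the sums of 30-40 and 40-50 min were compared with those of 10-20 min. At 9842316 to 52188028 molecules per sum, 5705 genes could be tested, of which 2058 were called higher (36.1%) and 1909 lower (33.5%). Those shares are over all 5705 genes and not over the 910 tested in bulk. Of 34 proteasome genes 31 were called lower in the sums and 1 higher. Of 27 glycolysis and fermentation genes 15 were called lower and 4 higher. In bulk 0 of 16 and 1 of 20 of these lists were called lower, so a fall in the sums was not particular to genes that fell in bulk. Of the 184 genes that fell in bulk, 178 were called lower there (96.7% of the bulk list, 9.32% of the single-cell list) and 2 higher. The 2 were the ribosomal RNA features RDN18-1 (1.42) and RDN25-1 (0.59). Of the 123 that rose in bulk, 87 were called higher (70.7% of the bulk list, 4.23% of the single-cell list), 12 lower and 24 neither. The falls were larger in the single-cell sums (median -2.63 against -1.28 in bulk) and the rises smaller (0.56 against 1.24); the bulk and single-cell values were not tested against each other. The 12 genes of opposite call were ARO4, HTB1, ITR1, THR1, ARP3, CWP2, CDC3, ICY1, HHT2, NCE103, FPR1 and MIM1.

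Genes with the clearest rise in bulk mostly rose in the single cells: ARG4 by 2.24, CPA1 by 2.83, SRL3 by 1.69, ARO10 by 1.87 and APE1 by 1.46 on the log2 scale, all called (edgeR). GAP1 did not: its level was 859 and 1005 CPM at 10-20 min in the 2 cultures and 773 and 795 CPM at 40-50 min (-0.065, adjusted p = 0.617). MEP2 was likewise not called (0.039). FPR1 stood at 1258 and 1415 CPM at 10-20 min and 992 and 1075 CPM at 40-50 min, and was called lower (-0.30, adjusted p = 0.000518). TDH3, PDC1 and ENO2, not called in bulk, were called lower in the sums (-1.08, -1.17 and -1.46). Genes too shallow for the bulk test gave clear values in the sums: DAL5 changed by 1.66, DAL80 by 1.07, GCV2 by 1.59, HSP12 by 1.59 and HXT3 by -1.37. SNZ1, a vitamin B6 gene of starved cells, went from 12.6 and 12.5 CPM at 10-20 min to 618 and 589 CPM at 40-50 min, but had 2 early and 5 late counts in bulk. Its neighbour MTG1, which ends beside it on the other strand of chromosome XIII, changed by 2.08 ± 0.38 in bulk and by 0.83 in the sums. MTG1 was chosen after its values were seen. Whether bulk counting kept the strands apart is not given, so the 2 genes are uncertain there.

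**Figure D5:**
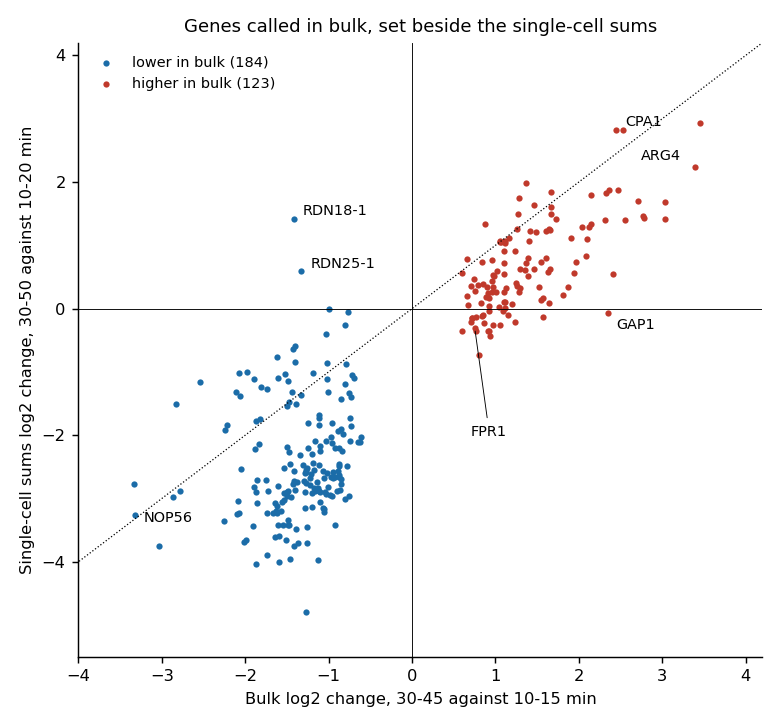
Log2 change in bulk (30-45 over 10-15 min, x axis) against the wild-type single-cell sums (30-50 over 10-20 min, y axis) for the 307 genes called in bulk, with 184 lower in blue and 123 higher in red; the dotted line marks equal values. Nearly all blue points lie below 0 on the y axis and most below the dotted line, while red points lie mostly between 0 and that line, with GAP1 and FPR1 under 0 and RDN18-1 and RDN25-1 alone at the upper left.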

How the data were processed

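Bulk values were the authors' deposited raw counts per gene and library; the sources used here do not say whether they are of unique molecules or of reads, or whether strand was used. Single-cell values were deposited UMI counts per cell with the authors' genotype, summed here over wild-type cells per library. The submitters' processing notes name kallisto 0.46.1, bustools 0.39.3 and the sacCer3 build. All 33 bulk libraries (3800 to 111293 counts) were fitted with edgeR 4.0.16 (robust quasi-likelihood, filterByExpr by time, TMM factors 0.894 to 1.28, terms for time and culture; 20 residual degrees of freedom, coefficient of variation 25.6%), and late minus early coefficients were tested over 910 genes. CPM values use TMM. The 16 single-cell sums were fitted likewise (5705 genes, 7 degrees of freedom). Both fits were tested on simulated data. Libraries of 1 culture were paired because they were drawn from the same flask. Their deviations from the mean of each time correlated at a mean of 0.143 within cultures. The mean of -0.0711 between cultures largely follows from subtracting that time mean and is not a separate result. P-values measure the spread of libraries around the time and culture terms. No doublet caller was run on the single cells.

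Genes named were the 12 largest rises and 12 largest falls among called genes with at least 50 counts and 1 direction in all cultures, a set list, and up to 2 called members per gene list. Members and lists were chosen with earlier results of these data known. Names came from RefSeq (5833 of 5843 features matched). Of 169649 distinct cell barcodes, 3646 occur in more than 1 single-cell library. PCR libraries were not analysed here. Alternatives are listed in the closing section; DESeq2 was version 1.42.0.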

Additional observations from a re-analysis of the deposited data

Results flagged for a closer look

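Of 76 groups of 6 libraries examined (38 named values at 10-15 min and at 30-45 min), 4 had 1 library set apart by a gap, relative to the group's range, above the 95% critical value of Dixon's test; chance flags about 1 in 20 groups. NOP56 stood at 508 CPM in culture 3 at 10 min, above the other 5 early libraries. RPS29A stood at 602 CPM in culture 3 at 30 min, the highest of the late 6, in the culture whose ribosomal protein share was also highest at that time. ENO2 was highest in culture 1 at 15 min, with a level of 27197 CPM. TDH3 was lowest in culture 2 at 10 min, at 4149.7 CPM. Without culture 2 the change of TDH3 was -0.13, and with all cultures 0.025; neither was called.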

How the results depend on the processing

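All 307 calls kept their direction under every alternative in which the gene was tested. The count was 285 with no replicate block, 320 with library totals, 275 with no filter beyond 1 count, 252 with a strict filter, 295 from the 12 libraries alone, 286 from sums per culture and period, 209 to 237 without 1 culture and 324 without libraries under 10000 counts; it moved past 1.5 times only without the 45 min libraries (134). Alternatives chosen after seeing the data gave 307 without YNL143C and 314 without the 45 min library of culture 1. From 15 to 30 min the block mattered more: 32 genes with no replicate block, 29 with no filter, 34 with the strict filter and 7 to 28 without 1 culture. From 10 to 15 min the count was 0 in all but 1 alternative, with 0 to 7 when 1 culture was left out. From 30 to 45 min it was 2 with library totals, 2 with no filter, 4 with DESeq2 and 3 without the 10 min libraries. The ribosomal protein share difference was -10.1 to -7.53 percentage points without 1 culture, where the exact test cannot pass the threshold, -7.01 without the 45 min libraries and -11.5 with YNL143C out of the denominator. The single-cell count was 3967, and 3431 with no replicate block; library totals moved its higher share from 51.9% to 81.2%. No single-cell fit was possible without 1 culture, since no residual degrees of freedom remained.

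Of the 12 named rises 11 and of the 12 falls 8 kept their call in every alternative in which they were tested; DAL2, NSR1, DPH2, EGD2 and RPL21A did not. Signs turned only for genes that were not called: CIT2 (-0.044 without the 30 min libraries), TDH3 (-0.25 with no filter, -0.13 to 0.13 without 1 culture, -0.22, -0.023 and -0.17 without the 10, 15 and 30 min libraries) and PDC1 (0.071 with RLE size factors, 0.00043 with the strict filter and 0.071 with DESeq2). The cause was not tested. At 12358 to 100144 counts per library 4933 features went untested, so nothing is said of them.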

Other observations

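Of the 307 called genes, 82 were in none of the 27 gene lists. Those named here were chosen after their values were seen. YAT2, a carnitine acetyltransferase, had the largest log2 change of any gene tested (3.45 ± 0.75 SE, adjusted p = 0.000146, edgeR), from 36 counts in the 12 libraries. TMT1, a methyltransferase, changed by 2.53, and PLN1, a lipid droplet protein, by 2.12. Among the falls outside the lists were ASC1, a protein of the small ribosomal subunit (-1.26), GCD1, of the initiation factor eIF2B (-1.19), and the polysome-bound SCP160 (-1.40).

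YNL143C took 17.6%, 30% and 29.5% of the counts of cultures 1, 2 and 3 at 10 min and 13.3%, 24.2% and 22% at 15 min. It was lower at 15 than at 10 min in every culture and then 18.8%, 29.8% and 29.2% at 45 min. In the single-cell sums it changed by 0.67 on the log2 scale (adjusted p = 0.0184, edgeR) at far lower levels.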
